A study of Drosophila melanogaster with 24 samples.

Results

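Mitochondrial ribosomal protein genes were taken by name, as all genes with mRpL or mRpS and then a digit in their FlyBase symbol. The count files hold 71 of them among 15406 genes, 47 of the large and 24 of the small subunit, and the symbols mRpS34 and mRpS5 were not analysed here. Members with the number of a bacterial ribosomal protein, and mRpS24 and mRpS28, are taken as the 43 with a bacterial counterpart, and the other 28 as specific to mitochondria. 21 members lie on chromosome arm 3R, 15 on 3L, 12 on 2L, 12 on 2R and 11 on X in a later annotation of the species. mRpL53 had 0 counts in all 24 libraries, and its exons lie within those of CG33155 on the same strand in that annotation. The other 70 members passed the filter on low counts in both tissues, with 50 to 5898 counts per library, so no member was tested only because of a tissue in which it was high.

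Mitochondria keep ribosomes of their own, and these translate the few respiratory chain proteins that are still encoded in mitochondrial DNA. All proteins of these ribosomes are encoded in the nucleus, made in the cytoplasm and imported. The small subunit (mRpS genes) reads the messenger RNA, and the large subunit (mRpL genes) joins the amino acids and releases the chain towards the inner membrane. Some of the proteins have a counterpart in bacterial ribosomes, and others were added to the mitochondrial ribosome later in evolution. In Drosophila, the ovary builds up the mitochondria that pass to the next generation, and spermatids fuse theirs into the long derivatives that run along the sperm tail.

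RNA was sequenced from adult gonads in 12 groups of 2 libraries, each from an independent dissection. Ovary groups were XX flies carrying the temperature-sensitive combination tra2[ts1]/tra2[ts2] in a w1118 background (called tra2ts), and w1118 females as their controls. Testis groups were XY flies carrying y1 w* and UAS-Tra.F 20J7 with the repressor tubP-GAL80ts 7 and the driver tubP-GAL4 LL7 (called TraF), and Control males with tubP-GAL80ts and tubP-GAL4 without the UAS-Tra.F transgene. Warmth inactivates the Tra2 protein in the first line and releases the female form of Tra in the second, so that the DSX transcription factor changes between its female and male isoforms.

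All flies were raised at 18 °C, aged 5 days, and kept warm for 0, 12 or 24 h before dissection. The extraction notes put the shift at 29 °C for ovaries and 30 °C for testes, and another field of the labels names 29 °C throughout. Egg chambers of stage 10 and older were removed from the ovaries. The tubulin driver acts in most cells, and both libraries of a group share a genotype line. In these bulk samples, fewer cells of a type and less RNA per cell cannot be told apart.

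Libraries held 16136939 to 32782474 reads counted in genes. tra reads fitted the TraF labels, at 239 to 313 CPM (counts per 1000000 reads counted, scaled by TMM factors) in TraF at 12 and 24 h, 21.1 to 25.5 CPM in TraF at 0 h and 5.86 to 12.1 CPM in Control. tra2 was at 52.8 to 64.5 CPM in tra2ts and 58.0 to 73.1 CPM in w1118 ovaries, which checks nothing, since the alleles alter the protein. Summed levels of 11 testis germline markers were 34.0 to 76.0 CPM in ovaries and 9838 to 14120 CPM in testes, with comr, Mst98Ca, dj and ProtA at 0 in ovaries. 7 ovary soma markers summed to 17390 to 44290 CPM in ovaries and 17.4 to 26.8 CPM in testes. 5 of 8 ovary germline markers were found, and summed to 1055 to 2973 CPM in ovaries and 577 to 1035 CPM in testes. 5 testis soma markers did not separate the tissues, at 161.8 to 334.7 CPM in ovaries and 143.8 to 216.5 CPM in testes. 4 fat body markers summed to 0.452 to 10.9 CPM in ovaries and 21.1 to 44.5 CPM in testes, and 5 gut markers to 0.164 to 4.87 CPM and 2.17 to 138 CPM. The part of such cells in the differences between tissues was not tested.

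5 libraries were set apart by measures other than the members. Accessory gland markers summed to 2154 CPM in Control 12 h replicate 1 and to 3.44 to 13.7 CPM in the other testis libraries. Control 0 h replicate 1 was set aside for gut genes that an earlier reading of these data found high, although its 5 gut markers here, at 26.4 CPM, were close to the 24.3 CPM of replicate 2. The antimicrobial gene AttC was at 15.6 CPM in w1118 0 h replicate 2 and at most 3.01 CPM in the other ovary libraries. w1118 24 h replicate 1 and tra2ts 24 h replicate 2 had the highest shares of reads outside genes among ovaries. Medians without these 5 libraries stand beside those with all libraries in most comparisons of hours, genotypes and the switch, and counts in some. Larger moves in counts without them, also for the tissue comparison, stand in the closing section.

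Transcripts of mitochondrial ribosomal proteins were more abundant in ovary than in testis libraries. The summed level of the 70 members ran from 3081 to 6143 CPM in the 12 ovary libraries, with a median of 4238 CPM. In the 12 testis libraries it ran from 1778 to 2290 CPM, with a median of 2002 CPM. Every ovary library was above every testis library. The large subunit summed to 1981 to 4005 CPM in ovaries and 1075 to 1373 CPM in testes, and the small subunit to 1099 to 2138 CPM and 703 to 918 CPM.

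**Figure D1:**
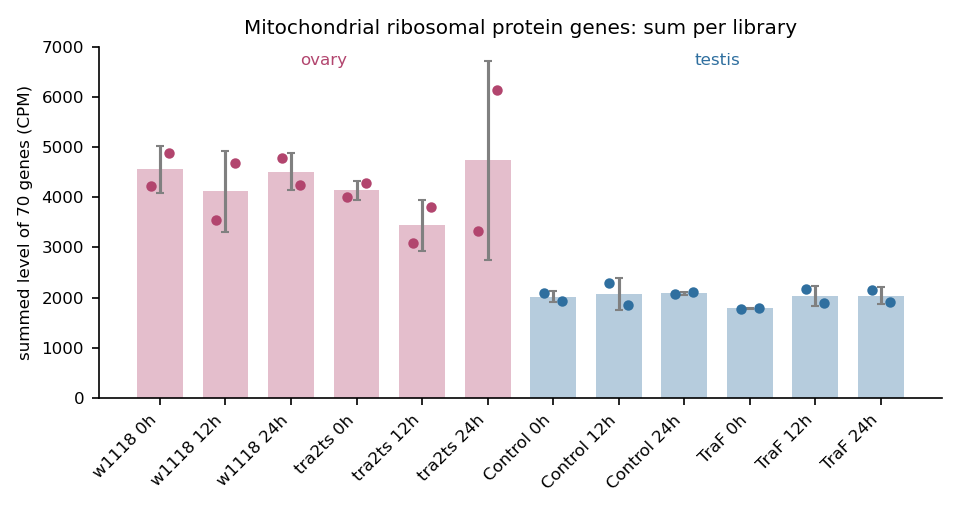
Summed level (CPM) of 70 mitochondrial ribosomal protein genes in each group: bars are means of 2 libraries, error bars the SD and points the libraries. All ovary points (3081 to 6143 CPM) lie above all testis points (1778 to 2290 CPM), and the tra2ts 24 h libraries, at 3337 and 6143 CPM, differ most.

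Gene by gene, 59 of the 70 members were higher in w1118 ovaries than in Control testes (edgeR adjusted p under 0.05), where 35.8% of all 12411 genes tested were called higher. 1 member was lower, where 54% of all genes were. The median log2 fold change, ovary minus testis and averaged over the 3 times, was 1.19 over the members and -0.81 over all genes tested. 40 members were called higher with at least a 2-fold difference, and 14 with at least 4-fold. The shares of all genes past these fold cuts were not counted, and they cannot exceed the 35.8% called higher. All 12 ovary libraries were above all 12 testis libraries for 48 members, against 26% of all genes tested. The reverse held for 0 members, against 43.4% of all genes, and 22 members overlapped between tissues.

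The tra2ts ovaries and TraF testes, which share no library with the control groups, gave 58 members higher and 1 lower, where 36.3% and 52.4% of all genes were called. 57 members were called higher in both genotype pairs. The share of all genes called higher in both was not counted, and it cannot exceed the 35.8% of the control pair. mRpL16 and mRpL24 were called in the control pair alone and mRpS16 in the other pair alone, and the difference between the pairs was not tested for them. The log2 fold changes of the 70 members in the genotype pairs had a Pearson r of 0.978 across genes, which are not independent replicates and share 1 model. The median in this pair was 1.25 over the members and -0.68 over all genes.

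The scaling of libraries sets the zero of this comparison. With relative log expression (RLE) factors the median of all genes moved from -0.81 to -1.13, and with total counts alone to -0.60. The members' median moved with it, to 0.88 and 1.395. The distance between both medians was 2.01, 2.01 and 2.00 on the log2 scale. Scaling shifts all genes by about the same amount, so it could hardly change this distance. Over 14519 genes, the distance was 2.235 with no filter on low counts and 2.229 with DESeq2. Under RLE factors 51 members were higher and 4 lower, where 30.9% and 58.2% of all genes were. Under total counts 64 were higher and 0 lower, where 38.2% and 51.3% of all genes were.

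**Figure D2:**
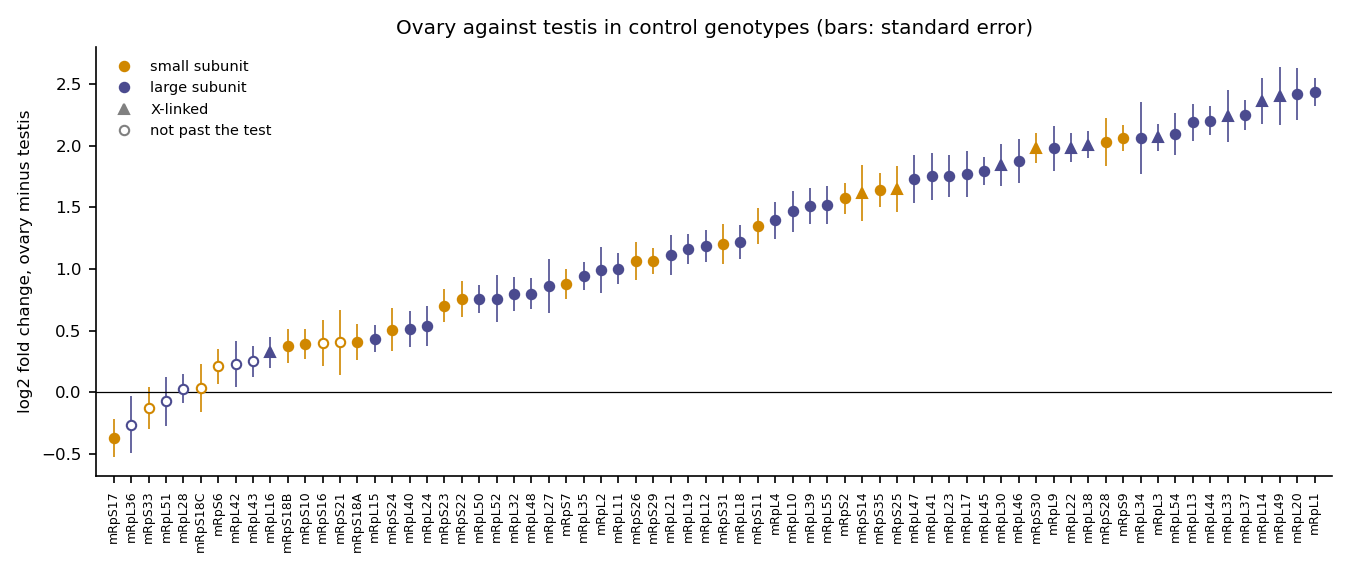
Log2 fold change (ovary minus testis, control genotypes) with its standard error for each of the 70 members, ordered by size. Colours give the subunit, triangles X-linked genes and open symbols the 10 members that did not pass the test. mRpS17, at -0.37, is the one filled symbol below 0, and the 10 genes at the right end are all of the large subunit.

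The 10 largest called differences were all of large-subunit genes, from 2.07 to 2.44 on the log2 scale. mRpL1 forms the mobile stalk where spent tRNA leaves the ribosome. It had 83.8, 94.1 and 102 CPM (lowest, median, highest of 6) in w1118 ovaries and 12.5, 17.9 and 21.8 CPM in Control testes. The groups were far apart, with 2.44 as the log2 fold change (SE 0.11, edgeR adjusted p = 6.58e-13). Its levels in tra2ts ovaries, 81.4 to 111 CPM, and TraF testes, 13.3 to 21.3 CPM, lay apart as well.

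mRpL20 is the counterpart of a protein that binds early in the assembly of the bacterial large subunit. It had 41.5, 52.9 and 61.9 CPM in w1118 ovaries and 6.47, 9.31 and 13.1 CPM in Control testes, and was higher in ovary by 2.42 on the log2 scale (SE 0.21, adjusted p = 5.54e-09). mRpL49, which bacteria lack, had 59.4, 90.6 and 127 CPM in ovaries and 13.3, 15.1 and 23.2 CPM in testes. It was higher by 2.40 (SE 0.24, adjusted p = 2.98e-08). Both genes kept the tissues apart in every library, but mRpL49 varied more among ovaries, up to 183 CPM in tra2ts 24 h replicate 2.

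mRpL14, whose counterpart takes part in the contact between the subunits, had 33.7, 47.8 and 55.3 CPM in w1118 ovaries and 7.70, 9.12 and 10.5 CPM in Control testes. The log2 fold change was 2.36 (SE 0.19). mRpL37 is specific to mitochondria, and its log2 fold change was 2.25 (SE 0.12). mRpL33, the counterpart of a small bacterial protein, had a log2 fold change of 2.24 (SE 0.21). None of these overlapped between tissues.

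mRpL44 has a fold related to ribonuclease III, and its log2 fold change was 2.20 (SE 0.12). mRpL13, another early-binding protein in bacteria, had a log2 fold change of 2.19 (SE 0.15), and the mitochondria-specific mRpL54 2.10 (SE 0.17). mRpL3 lies beside the site of peptide bond formation, and its log2 fold change was 2.07 (SE 0.11). All 10 calls stood when any 1 of the 12 control libraries was left out. The 10 were chosen for the size of their difference in these control libraries. Kept calls and a lack of overlap among those libraries are therefore no added support. For mRpL13, 236 of 671 exonic bases are shared with CG10602 on the same strand in the later annotation, so its reads cannot be assigned with certainty.

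**Figure D3:**
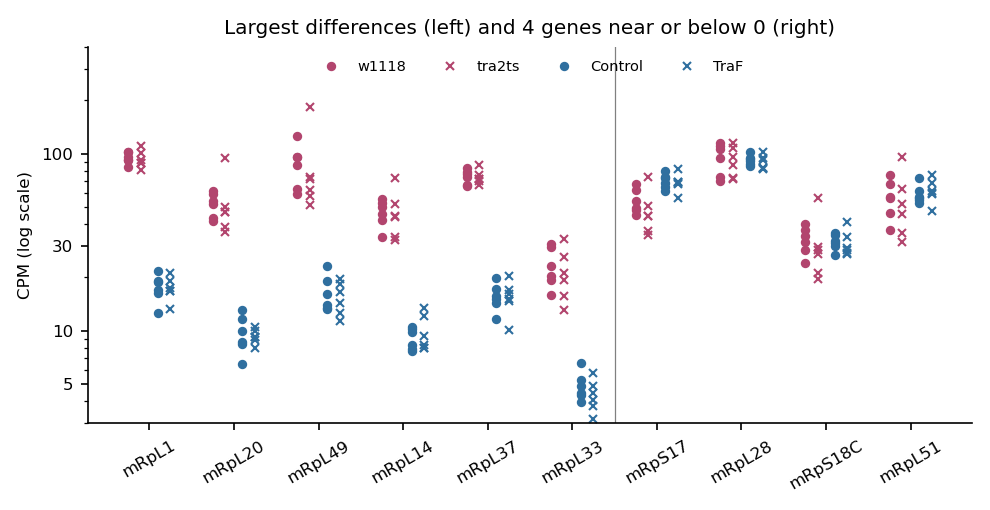
CPM (log scale) of 10 members in every library, w1118 and Control as circles and tra2ts and TraF as crosses, ovary in red and testis in blue. The 6 genes on the left separate the tissues in every library, while mRpS17, mRpL28, mRpS18C and mRpL51 on the right overlap. The 6 were chosen for their difference between the control libraries, so their separation there is no added support.

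Genes at known functional sites in the large subunit were read by role, a choice made outside the naming rule. At the site that binds translation factors, mRpL10 was higher in ovary by 1.47 (SE 0.17, adjusted p = 2.15e-07) on the log2 scale, mRpL11 by 1.00 (SE 0.13) and mRpL12, the stalk protein that recruits these factors, by 1.19 (SE 0.13). mRpL12 had 108 to 172 CPM in w1118 ovaries and 54.1 to 61.6 CPM in Control testes, without overlap. Near the peptidyl transferase centre, mRpL3, given above, mRpL2 at 0.99 (SE 0.19) and mRpL27 at 0.86 (SE 0.22) were higher. mRpL16, the counterpart of a protein near the aminoacyl-tRNA site, had 51.6 to 80.4 CPM in ovaries and 49.6 to 55.6 CPM in testes. Its difference of 0.32 (SE 0.13, adjusted p = 0.0231) was not called without w1118 0 h replicate 2 (adjusted p = 0.0541) and was 0.005 under RLE factors (adjusted p = 0.975).

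Along the exit tunnel, mRpL4 was higher in ovary by 1.39 (SE 0.15), mRpL22 by 1.98 (SE 0.12) and mRpL23 by 1.75 (SE 0.17) on the log2 scale. mRpL45, which in mammals holds the ribosome to the inner membrane, was higher by 1.80 (SE 0.11), with 77.7 to 102 CPM in w1118 ovaries and 23.0 to 28.8 CPM in Control testes. mRpL24, also at the tunnel exit in bacteria, was higher by 0.53 (SE 0.16). All 5 passed the test. mRpL24 overlapped between tissues, and the other 4 did not.

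Over the large subunit, 41 of 46 members tested were higher and 0 lower, with a median log2 fold change of 1.49. Over the small subunit, 18 of 24 were higher and 1 lower, with a median of 0.82. The difference between subunits was not tested. In mammals the counterparts of mRpS18A and mRpS30 belong to the large subunit, and the classes here follow the fly symbols. By origin, 36 of 43 members with a bacterial counterpart were higher, with a median of 1.16, and 23 of the 27 tested mitochondria-specific members, with a median of 1.51.

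mRpS17, whose bacterial counterpart binds early to the small-subunit RNA, was the one member called lower in ovary. It had 45.3, 51.7 and 67.7 CPM in w1118 ovaries and 61.2, 70.5 and 79.8 CPM in Control testes, so the groups overlapped. The log2 fold change was -0.37 (SE 0.15, adjusted p = 0.0321) in controls and -0.55 (SE 0.15, adjusted p = 0.00310) between tra2ts ovaries and TraF testes. In controls the call was lost without 7 of the 12 libraries, 1 at a time: w1118 0 h replicate 1, both w1118 12 h replicates, w1118 24 h replicate 2, Control 12 h replicate 1, and replicate 2 of Control 0 h and 24 h. Over all 12 such fits the value ran from -0.42 to -0.26, with adjusted p up to 0.145, and it was -0.16 (adjusted p = 0.272) with total counts.

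The next smallest called differences were of both subunits. mRpS18B was higher in ovary by 0.38 (SE 0.14, adjusted p = 0.0160), a call lost without Control 12 h replicate 2 (adjusted p = 0.0505). mRpS18A, a paralogue from the same bacterial protein, was higher by 0.41 (SE 0.15), and mRpS10, in the head of the small subunit, by 0.39 (SE 0.12). The third paralogue, mRpS18C, was not called at 0.03 (SE 0.19, adjusted p = 0.884). All 3 paralogues overlapped between tissues. mRpS18C had 24.1, 33.1 and 40.0 CPM in w1118 ovaries and 26.9, 31.7 and 35.8 CPM in Control testes.

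mRpL15 was higher by 0.43 (SE 0.11), mRpS24, the counterpart of bacterial S3, by 0.51 (SE 0.17), mRpL40 by 0.51 (SE 0.15) and mRpS23 by 0.70 (SE 0.13). In mRpS24, 332 of 600 exonic bases face exons of TBC1d7 on the other strand. Under RLE factors mRpS18B, mRpS18A, mRpS10, mRpL15, mRpS24, mRpL40 and mRpL24 were not called, at 0.06 to 0.22, and mRpS23 was. mRpL28 was at 0.03 (SE 0.12, adjusted p = 0.822) and mRpL51 at -0.07 (SE 0.20, adjusted p = 0.731). mRpL28 had 69.9 to 114 CPM in w1118 ovaries and 84.8 to 103 CPM in Control testes, and mRpL51 37.3 to 75.9 CPM and 52.5 to 72.5 CPM.

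Levels among the members, per kb of exon, were closer to each other in ovary than in testis. The SD of log2 CPM per kb over the 70 genes was 0.46 to 0.57 in the ovary libraries and 0.81 to 0.92 in the testis libraries, with no overlap. The member at the 90th percentile was 1.82 to 2.70 times the one at the 10th in ovaries and 4.29 to 5.75 times in testes. The 29 members with no exon overlap with a neighbour gave 1.84 to 2.67 and 4.85 to 6.11. In 64 respiratory chain subunits this ratio was 5.99 to 7.00 in ovaries and 7.31 to 10.7 in testes, while their SD ran the other way, at 1.52 to 1.89 and 1.27 to 1.44. The 82 cytoplasmic ribosomal proteins detected in every library, taken by symbol, had ratios of 3.25 to 5.06 and 3.16 to 3.67. Their SDs were 1.74 to 1.98 and 0.90 to 0.985. Over 8136 genes detected in every library, the ratio was 208 to 376 in ovaries and 88.6 to 111 in testes. Their SD was 3.00 to 3.31 and 2.48 to 2.60, so these 8136 genes were wider apart in ovaries. Any count above 0 was taken as detected, and the set was not matched to the members in level. All these spreads are descriptions of the genes detected in both tissues, with no test.

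In ovary, mRpL12 had the highest level per kb, 179 ± 35.7 CPM per kb (SD, n = 12 libraries). mRpS7, of the small-subunit head, was at 117 ± 23.9 CPM per kb, mRpL30 at 113 ± 28.8, mRpL49 at 110.5 ± 48.3 and mRpS21 at 103 ± 57.2. The last 4 did not differ beyond their spread. mRpS24 at 21.4 ± 6.01, mRpL21 at 34.8 ± 9.74 and mRpL27 at 38.0 ± 16.7 CPM per kb were lowest.

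In testis, mRpS17 was highest at 97.5 ± 10.1 CPM per kb (SD, n = 12), followed by mRpL51 at 96.4 ± 12.9, the mitochondria-specific mRpS33 at 79.8 ± 9.10, mRpL28 at 77.6 ± 6.10 and mRpS21 at 77.4 ± 11.2. The means of mRpL51 and mRpS33 differed by more than either SD, and those of the other neighbours in this order did not. Here too the SDs span genotypes and hours, and the order was not tested. The lowest were mRpL37 at 11.55 ± 2.15, mRpL13 at 11.9 ± 2.54 and mRpL3 at 12.1 ± 1.81 CPM per kb, with means closer together than any of these SDs. By mean level, mRpL49 was the fourth highest in ovary and ranked 45 of 70 in testis, and mRpS17 ranked 26 in ovary. Across the 70 genes, Spearman's rho between the tissues was 0.417, as a description of genes that share libraries and exon lengths.

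**Figure D4:**
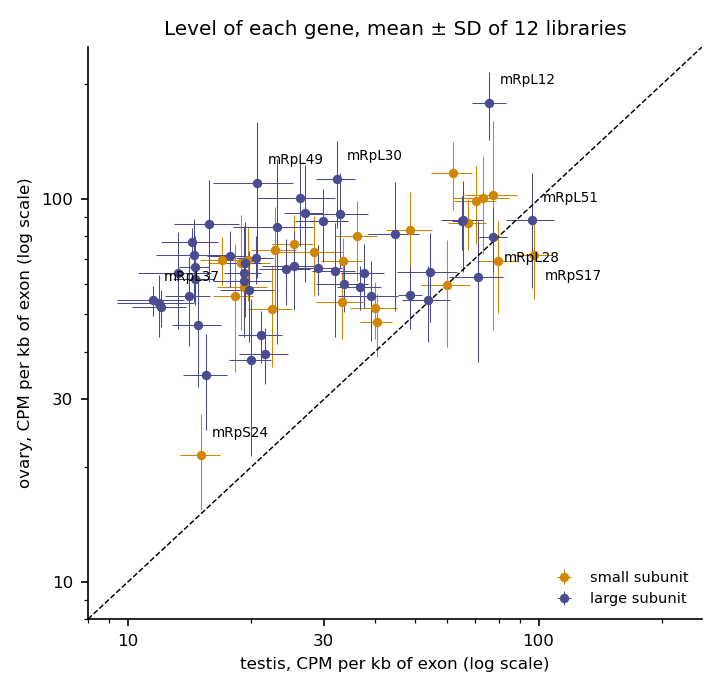
Mean level of each member in CPM per kb of exon in testis (x) and ovary (y), both on log scales, with the SD over 12 libraries as bars, and colours for the subunit. The dashed line marks equal levels, and most members lie above it. mRpL12 is at 179 in ovary, and mRpL37, at 11.55, is the lowest in testis.

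The 11 X-linked members were all called higher in ovary in controls, with a median log2 fold change of 1.98, from 0.32 for mRpL16 to 2.40 for mRpL49. The 59 autosomal members had a median of 1.06, with 48 higher and 1 lower. All X-linked genes tested had a median of 0.24 and autosomal genes -1.04, with 47.9% and 33.3% called higher. The chromosome difference among the members was not tested, and it runs the same way as in all genes.

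Other genes of mitochondrial gene expression were read beside the members. tko and bonsai encode mitochondrial ribosomal proteins S12 and S15 under other symbols, and both were higher in ovary. tko had 55.3, 81.8 and 106 CPM in w1118 ovaries and 11.8, 12.6 and 15.9 CPM in Control testes, higher in ovary by 2.62 on the log2 scale (SE 0.21, adjusted p = 1.06e-09). bonsai was higher by 1.45 (SE 0.11). Neither overlapped between the control groups.

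Of 11 mitochondrial translation factors, 6 were higher and 4 lower, with a median of 0.99. mEFTu1, an elongation factor that delivers tRNA, was at 340 to 475 CPM in ovaries and 80.0 to 102 CPM in testes, while its duplicate mEFTu2 was at 42.1 to 74.1 CPM and 306 to 374 CPM. Their log2 fold changes were 2.13 (SE 0.12) and -2.63 (SE 0.13). mEFTs, the exchange factor of mEFTu, had a log2 fold change of -2.37 (SE 0.14). Both directions thus held called translation factors.

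Of 15 mitochondrial tRNA synthetases, 11 were higher and 4 lower. TrpRS-m, for tryptophan, had 27.7 to 46.0 CPM in ovaries and 831 to 1111 CPM in testes, and CysRS-m, for cysteine, 17.3 to 30.2 CPM and 350 to 420 CPM. IleRS-m was higher in ovary by 2.96 (SE 0.18) and ArgRS-m by 2.70 (SE 0.13) on the log2 scale. Among 8 tested genes of mitochondrial DNA and transcription, 7 were higher, among them mtDNA-helicase, which unwinds mitochondrial DNA, with a median of 35.8 CPM in ovaries and 3.46 CPM in testes, while PolrMT, the RNA polymerase, was not called at -0.19 (SE 0.16).

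The respiratory chain list held 33 higher and 16 lower of 68 subunits, with a median of 0.34. It was taken by symbol, and some duplicated genes high in testis, such as COX6AL2 and ND-51L1, were not left out. Cyt-c1, of complex III, was higher in ovary by 3.54 (SE 0.16) and ATPsynbeta, of ATP synthase, by 3.28 (SE 0.15). COX6AL2, a duplicated subunit gene, had no counts in w1118 ovaries and 174 to 253 CPM in Control testes. Cytoplasmic ribosomal proteins had 80 of 87 higher and 7 lower, with a median of 3.09. Those detected in every library summed to 126400 to 275600 CPM in ovaries and 18090 to 30630 CPM in testes. The list was taken by symbol, and paralogues high in testis were not left out. The 7 lower include RpL10Aa and RpS28-like, both at 0 CPM in w1118 ovaries. They had 207 to 314 and 24.4 to 38.7 CPM in Control testes. The distance of the list's median from that of the mitochondrial members was not tested.

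Few members were called between hours of warmth, fewer in ovaries than in testes. In ovaries, 0 of 70 members were called at 12 h or at 24 h against 0 h, averaged over both genotypes, by edgeR and by DESeq2. 5 members at 12 h and 3 at 24 h had an unadjusted p under 0.05. The background was 0.911% higher and 1.41% lower at 12 h, and 1.86% and 2.05% at 24 h. The median log2 change was -0.24 at 12 h, with 62 of 70 below 0, and 0.145 at 24 h, with 51 above 0. Without the 5 libraries set apart, the 12 h median was -0.13, with 55 below 0. Over fits that each left out 1 library, it ran from -0.35 without replicate 2 of tra2ts 12 h to -0.14 without w1118 0 h replicate 2.

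Muscle markers, 5 of 6 found, moved with the hours in ovaries. They summed to 1227 and 1543 CPM in tra2ts and 641 and 509 CPM in w1118 at 0 h, to 532.5, 681, 382 and 190.5 CPM at 12 h, and to 451, 888.5, 254 and 181 CPM at 24 h. All 4 hemocyte markers summed to 44.3 and 63.8 CPM in tra2ts at 0 h and 24.2 to 26.5 CPM later, and to 11.1 and 17.3 CPM in w1118 at 0 h and 4.04 to 9.87 CPM later. Their part in the ovary changes was not tested.

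The lowest p at 12 h was that of mRpL44. It had 93.5, 94.3, 87.6 and 88.4 CPM in the 4 libraries at 0 h (w1118, then tra2ts) and 63.4, 82.2, 51.5 and 63.7 CPM at 12 h, which were all lower. Its log2 change was -0.50 (SE 0.18, adjusted p = 0.175). mRpL10 was at -0.67 (SE 0.26, adjusted p = 0.202) and mRpL43 at -0.47 (SE 0.19, adjusted p = 0.209). With the 4 groups of that comparison fitted alone, 4 members were called lower, where 5.8% of all genes were. Without the 5 libraries set apart 1 was, mRpL10 (adjusted p = 0.0404), where 2.88% of all genes were.

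At 24 h the lowest p were those of mRpS7 at 0.50 (SE 0.19, adjusted p = 0.192), mRpS31 at 0.56 (SE 0.25, adjusted p = 0.255) and mRpL28 at -0.40 (SE 0.18, adjusted p = 0.256). Without tra2ts 24 h replicate 1, 6 members were called higher at 24 h, where 5.63% of all genes were, and the median was 0.37. Without tra2ts 24 h replicate 2 the median was -0.20, with 62 of 70 members below 0. Without the 5 libraries set apart, the 24 h median turned to -0.20, with 58 of 70 members below 0, and 0 were called.

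Ovary duplicates differed from each other over the whole set. All 70 members were higher in replicate 2 than in replicate 1 of tra2ts 24 h, with a median fold of 1.96, where 49% of all genes detected in both were higher. All 70 were also higher in replicate 2 of tra2ts 12 h (median fold 1.26) and w1118 12 h (1.35), where 44.6% and 49.3% of all genes were. At 0 h, 56 members in tra2ts and 61 in w1118 were higher in replicate 2, where 41% and 53.4% of all genes were. In w1118 24 h the order was the other way, with 47 members higher in replicate 1. Cytoplasmic ribosomal proteins moved the same way in tra2ts 24 h, where 97.6% were higher in replicate 2. Between these duplicates, ovary germline markers went from 2819 CPM in replicate 1 to 1055 CPM in replicate 2, testis soma markers from 304 to 187 CPM, muscle markers from 451 to 888.5 CPM and fat body markers from 1.89 to 10.9 CPM. Replicate 2 is also set apart above for its reads outside genes, 2.47% against 1.35% in replicate 1. The part of these in the difference between duplicates was not tested. Testis duplicates had median folds of 1.07 to 1.29, the widest in Control 12 h. Replicate 1 was higher for 67 members in Control 12 h, 65 in TraF 24 h, 61 in TraF 12 h and 54 in Control 0 h. It was higher for 38 in TraF 0 h and 35 in Control 24 h. Over these testis groups, 45.5% to 51% of all genes were higher in replicate 2.

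In testes, 1 member was called higher at 12 h, where 1.7% of all genes were, and 9 at 24 h, where 6.79% were. 0 were called lower at either time, where 1.82% and 5.43% of all genes were, and 1 and 2 members with changes below 0 had an unadjusted p under 0.05. The median change was 0.13 at 12 h and 0.14 at 24 h, against 0.011 and 0.001 over all genes. 54 and 56 of the 70 members were above 0. The 12 h median was 0.031, with 45 above 0, without Control 12 h replicate 1, the library with accessory gland markers. It was 0.056 without TraF 12 h replicate 1, 0.055 without the 5 libraries set apart, and 0.033 in Control against 0.23 in TraF. The 24 h median was 0.083 without TraF 24 h replicate 1, 0.16 without the 5 libraries, and 0.079 in Control against 0.21 in TraF. The 9 members held 6 of the large and 3 of the small subunit, all autosomal.

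mRpL40, a mitochondria-specific protein, was called at both times. It had 26.6 and 24.9 CPM in Control and 18.0 and 20.7 CPM in TraF at 0 h, then 31.7, 29.5, 27.9 and 28.4 CPM at 12 h and 32.2, 32.8, 31.9 and 30.5 CPM at 24 h. All later libraries were above all those at 0 h. By edgeR, the log2 change was 0.39 at 12 h (SE 0.09, adjusted p = 0.0410) and 0.51 at 24 h (SE 0.09, adjusted p = 0.00542). The 24 h call stood without any 1 library, and the 12 h call stood only without Control 12 h replicate 2, with adjusted p up to 0.133 in the other 7 fits. The next lowest p at 12 h were those of mRpL35 at 0.37 (SE 0.10, adjusted p = 0.0734), with 28.55 and 23.8 CPM in Control and 29.0 and 26.6 CPM in TraF, and mRpS11 at 0.40 (SE 0.12, adjusted p = 0.0982), with 23.6 and 20.0 CPM and 24.4 and 19.8 CPM. Neither was called.

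mRpL13 had the largest called change at 24 h, 0.62 (SE 0.13, adjusted p = 0.0143). Its Control libraries had 6.67 and 7.50 CPM at 0 h and 9.27 and 9.26 CPM at 24 h, and its TraF libraries 5.24 and 5.34 CPM, then 9.92 and 9.25 CPM. The times did not overlap. Leaving out TraF 24 h replicate 1, Control 0 h replicate 1 or TraF 0 h replicate 2 ended the call, with adjusted p up to 0.06145.

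mRpL9, in bacteria a protein that reaches out from the L1 side, rose by 0.54 (SE 0.15), from 14.4 to 19.0 CPM at 0 h to 21.8 to 26.4 CPM at 24 h over 4 libraries each. mRpS11, on the platform of the small subunit, rose by 0.51 (SE 0.12), from 14.6 to 18.8 CPM to 21.5 to 25.5 CPM. mRpL35, the counterpart of a small bacterial protein, rose by 0.42 (SE 0.10), from 19.3 to 21.9 CPM to 27.3 to 28.9 CPM. None of these overlapped between 0 h and 24 h. The call of mRpL35 was lost without TraF 24 h replicate 1 or TraF 0 h replicate 2, and other such fits are not given for it. mRpL9 was not called without any 1 of the 8 libraries (adjusted p 0.0726 to 0.156), and mRpS11 not without 5 of them (up to 0.0869).

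The other 4 were the mitochondria-specific mRpS22 at 0.38 (SE 0.10), mRpS23 at 0.37 (SE 0.10), mRpL50 at 0.35 (SE 0.10) and mRpL45 at 0.32 (SE 0.09). mRpS22 had 52.1 to 61.1 CPM at 0 h and 67.2 to 77.4 CPM at 24 h, and the times did not overlap in any of the 4. All 9 members were chosen by a test on these same libraries, so their lack of overlap is no added support. The share of all genes without such overlap was not counted. Leaving out any 1 of the 8 libraries ended the calls of mRpS23, mRpL50 and mRpL45, and any but Control 0 h replicate 1 that of mRpS22. At 24 h the naming rule takes 8 of the 9, and mRpL35, which it takes at 12 h, was added after its values were seen.

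The number of members called at 24 h was 1 to 4 when any 1 of the 8 libraries at 0 and 24 h was left out, which widens the error as well, and 2.66% to 4.09% of all genes were called higher in those fits. It was 1 without TraF 24 h replicate 1 or TraF 0 h replicate 2, 2 without replicate 2 of Control 0 h or 24 h, 3 without Control 24 h replicate 1 or TraF 24 h replicate 2, and 4 without replicate 1 of TraF 0 h or Control 0 h. Within genotypes, 0 members were called in Control, where 209 of all 12083 genes were called higher. In TraF 2 were, mRpL13 and mRpL40, where 175 genes (1.45%) were. With total counts alone 3 were called, where 5.57% of all genes were.

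Gut markers moved with the hours in testis, in all 5 markers summed. They were at 2.17 and 3.335 CPM in TraF and 24.3 and 26.4 CPM in Control at 0 h, at 19.4 to 83.0 CPM at 12 h, and at 32.2 to 138 CPM at 24 h. Hemocyte markers summed to 22.5 to 33.8 CPM at 0 h, 42.9 to 50.9 CPM at 12 h and 32.1 to 70.4 CPM at 24 h. None of these markers was at 0 throughout the testis libraries. Their part in the change of the members was not tested.

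**Figure D5:**
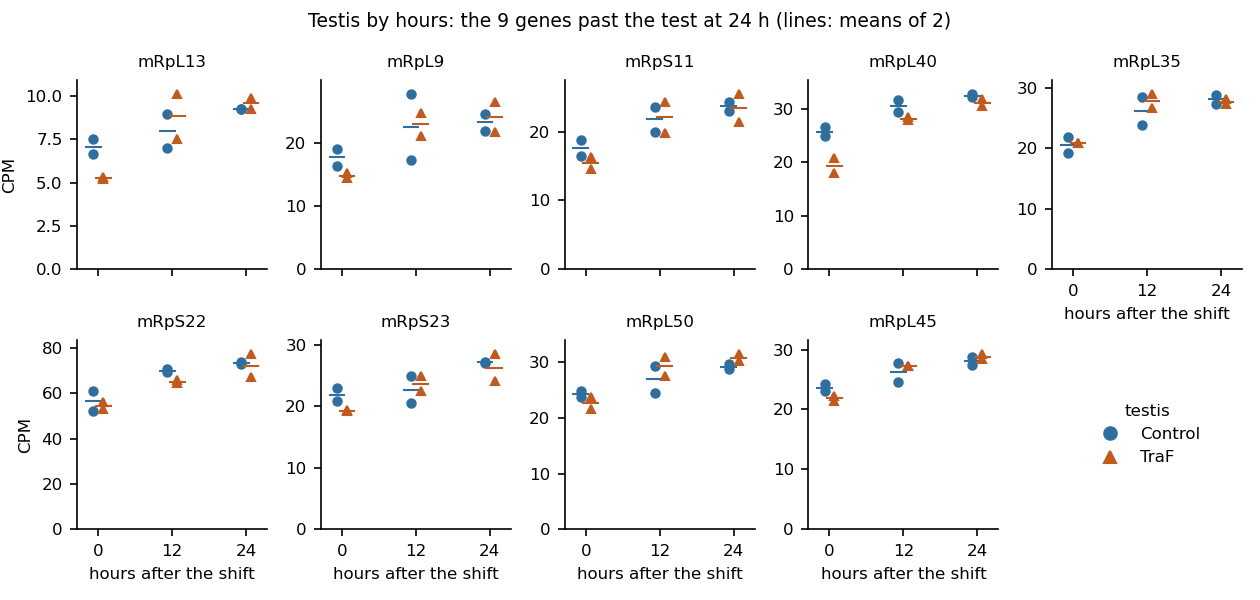
CPM of the 9 members called higher at 24 h in testes, by hours after the shift, Control as blue circles and TraF as orange triangles, with lines at the means of 2 libraries. All 24 h points lie above all 0 h points in each of the 9 genes, as in mRpL40, from 18.0 to 26.6 CPM at 0 h to 30.5 to 32.8 CPM at 24 h. The 9 were chosen by the test on these same libraries, so this separation is no added support.

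The 24 h change differed between tissues for 0 of 70 members by edgeR, with 5 members at an unadjusted p under 0.05 and 1 called lower by DESeq2. The background was 1.89% higher and 2.86% lower. mRpL13 had the lowest p, with an ovary change minus testis change of -0.85 (SE 0.25, adjusted p = 0.0624), followed by mRpL35 at -0.61 (SE 0.20, adjusted p = 0.0919) and mRpL22 at -0.46 (SE 0.20, adjusted p = 0.235). Leaving out tra2ts 24 h replicate 1 gave 2 higher, where 2.78% of all genes were, and leaving out tra2ts 24 h replicate 2 gave 4 lower, where 3.16% were. Among all single libraries the counts ran from 0 to 2 higher and 0 to 4 lower. The median difference was -0.03, with 38 of 70 members below 0, and -0.34, with 63 below 0, without the 5 libraries set apart.

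Few members were called between genotypes. Averaged over the times, 0 of 70 members were called between tra2ts and w1118 ovaries, where 2.58% of all genes were higher and 1.43% lower. 1 member, mRpS9, had an unadjusted p under 0.05, and DESeq2 called 1 lower, as edgeR did without the 5 libraries set apart, where 1.28% of all genes were. mRpS9, whose tail reaches the peptidyl-tRNA site, had 67.9 to 88.8 CPM in the 6 tra2ts libraries and 82.9 to 126 CPM in the 6 w1118 libraries, with overlap at 1 tra2ts library. Its log2 difference was -0.48 (SE 0.13, adjusted p = 0.0826), and 325 of its 1293 exonic bases face ArgRS-m on the other strand. mRpL43 was at -0.30 (SE 0.15, adjusted p = 0.458). 68 of the 70 members were below 0, with a median of -0.10 against -0.002 over all genes, and with total counts 47 were below 0. The median was 0.041, with 49 of 70 members above 0, without tra2ts 24 h replicate 1, and -0.27, with all 70 below 0, without tra2ts 24 h replicate 2. It was -0.22, with all 70 below 0, without the 5 libraries set apart.

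In testes, 2 members were lower in TraF than in Control, where 3.06% of all genes were, and 0 were higher, where 2.3% were. mRpL18, the counterpart of a protein that binds ribosomal 5S RNA in bacteria, had 15.0 and 14.6 CPM in TraF at 0 h, 17.8 and 16.1 CPM at 12 h, and 18.9 and 15.97 CPM at 24 h. In Control it had 22.5 and 19.3 CPM, 23.9 and 18.9 CPM, and 20.3 and 22.6 CPM. The highest TraF library just passed the lowest Control library, and the log2 difference was -0.37 (SE 0.09, adjusted p = 0.0474). The mitochondria-specific mRpL48 had 12.7 to 17.0 CPM in TraF and 17.7 to 20.0 CPM in Control, without overlap, a difference of -0.32 (SE 0.07, adjusted p = 0.0257).

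Of 12 fits that each left out 1 library, mRpL18 stayed called only without Control 12 h replicate 2, and mRpL48 only without replicate 1 of Control 12 h or 24 h or replicate 2 of Control 12 h. Adjusted p rose to 0.149 and 0.0913, while the log2 differences ran from -0.41 to -0.32 for mRpL18 and from -0.34 to -0.295 for mRpL48. Without the 5 libraries set apart neither was called, and the median over the members turned from -0.06 to 0.02, and it was -0.013 without Control 12 h replicate 1. Exons of mRpL48 and mRpL18 face other genes over 219 of 790 and 41 of 740 bases.

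The isoform switch is read as how much more a gene changed after 0 h in tra2ts than in w1118, or in TraF than in Control. It was called for 0 members in all 4 comparisons by edgeR and by DESeq2. The same edgeR fits called 0 of all genes in ovaries and 1 higher in testes at each time, a background of 0% in ovaries and 0.00828% higher in testes. 1 member, mRpL48 in testes at 24 h, had an unadjusted p under 0.05, and the other 3 comparisons had 0. It was at 0.41 (SE 0.18, adjusted p = 0.9999). mRpS26 was next in that comparison at 0.40 (SE 0.20).

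In the other switch comparisons the lowest p were those of mRpS9 at -0.33 (SE 0.32) and mRpS30 at -0.31 (SE 0.31) in ovaries at 12 h, mRpL2 at 0.76 (SE 0.61) and mRpL21 at 0.515 (SE 0.50) in ovaries at 24 h, and mRpL13 at 0.57 (SE 0.27) and mRpL42 at 0.53 (SE 0.28) in testes at 12 h. In ovaries at 24 h, 69 of 70 members were above 0, with a median of 0.24. mRpL21 had 46.8 and 106 CPM in the tra2ts libraries of that time and 55.8 and 67.2 CPM in the w1118 libraries. Without the 5 libraries set apart, 68 of 70 members were below 0, with a median of -0.30, and mRpL2 and mRpL21 turned to -0.189 and -0.245. Leaving out tra2ts 24 h replicate 2 alone gave a median of -0.34, with 65 below 0, and leaving out replicate 1 alone 0.62, with all 70 above 0. The 12 h medians without the 5 libraries were -0.17 in ovaries and 0.25 in testes, against -0.08 and 0.17 with all libraries.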

How the data were processed

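Gonad RNA from 24 libraries (12 groups of 2, 76-base single-end reads) was measured by RNA-seq. The values are raw read counts per gene, deposited by the authors for each library. Per the submitters' processing notes, reads were aligned with TopHat 1.4.1 to dm3 and counted with HTSeq. Which HTSeq version, gene annotation and strand setting served is not given in the sources used here, so reads of overlapping genes on opposite strands may not be told apart. The 5 summary lines of each file were left out of library sizes. Reads outside genes were 1.066 to 2.478% and ambiguous reads 1.881 to 4.297%.

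Counts were tested with edgeR 4.0.16 in R 4.3.3 (limma 3.58.1): filterByExpr by group, TMM scaling, glmQLFit and two-sided glmQLFTest with prior count 0.125, and Benjamini-Hochberg adjustment over all genes tested, called under 0.05. Comparisons within a tissue were fitted on its 12 libraries (8784 genes in ovaries, 12083 in testes), and those between tissues on all 24 (12411 genes). CPM values use TMM factors over all 24 libraries, and CPM per kb uses exonic lengths of a later annotation, from which chromosome arms and overlaps also come. No coordinates or sequences were taken from it, since its build differs from dm3. Members and lists were chosen with earlier results of these data known.

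Genes were named by rule: for ovary against testis, the called members with the 10 largest and 10 smallest log2 fold changes and the 3 nearest 0. For hours, the rule took the 4 largest and 4 smallest called, or the 3 lowest p where under 3 were called. For genotype and switch it took up to 5 called, or the 2 lowest p, and for levels the 5 highest and 3 lowest per kb. Other genes named, such as those read by ribosomal site, were picked with their values in view. The alternatives tried were RLE scaling, total counts, no filter, a robust prior, single times or genotypes, compared groups only, a replicate block, each library left out, and DESeq2 1.42.0. 2 more were chosen after seeing the data: leaving out the 5 libraries set apart, and counting only members with no exon overlap. The procedure was tested on simulated data. Libraries of a group came from independent dissections of 1 line, and equal replicate numbers were not taken as pairs. Figures were drawn with matplotlib 3.10.9 in Python 3.11.15.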

Additional observations from a re-analysis of the deposited data

How the results depend on the processing

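Settings that moved a count of called members by over 1.5 times were these. For ovary against testis in controls, the members called lower went from 1 to 0 at 0 h, 12 h or 24 h alone, with total counts or with no filter, and to 4 with RLE scaling or DESeq2. In the experimental pair they went from 1 to 0 at 0 h or 24 h alone or with total counts, to 2 with the replicate block, to 4 at 12 h alone, and to 5 with RLE scaling, DESeq2 or without the 5 libraries set apart. Of all 12411 genes, 6703 were lower in controls in the main fit, 6366 with total counts and 7220 with RLE scaling. In the experimental pair 6502, 6012 and 7075 were, with 6572 under the replicate block and 6075 at 12 h alone. Counting only the 29 members with no exon overlap gave 26 higher in both pairs, 3 higher in testes at 24 h and 0 lower in TraF, since fewer genes are counted. For hours in ovaries, 4 members were lower at 12 h with the compared groups only, and 1 without the libraries set apart. In testes at 12 h, the 1 member higher became 0 in either genotype alone, with total counts, no filter, compared groups only or without the libraries set apart, 2 with DESeq2 and 4 with the replicate block. In testes at 24 h, 9 higher became 0 in Control alone, 2 in TraF alone, 3 with total counts and 14 with the block. The block also gave 1 lower. Of all 12083 genes, 821 were higher at 24 h in the main fit, 209 in Control alone and 175 in TraF alone. With total counts 673 were, and with the block 1086. Genes called lower went from 656 to 903 with the block. At 12 h, 206 genes were higher in the main fit, 136 with total counts and 335 with the block. The difference of the 24 h changes gave 1 lower with total counts or DESeq2 and 2 with the block. Of all genes, 355 of 12411 were lower in the main fit, 275 with total counts, 455 with the block and 478 of 14519 with DESeq2. tra2ts against w1118 gave 1 lower with DESeq2 or without the libraries set apart. In TraF against Control, 2 lower became 1 with total counts or no filter, 4 with the block and 0 without the libraries set apart. Over all genes, tra2ts against w1118 had 126 of 8784 lower in the main fit and 221 of 12663 with DESeq2. TraF against Control had 370 of 12083 lower, 430 with total counts, 485 with the block and 335 of 14435 with no filter. The cause of these moves was not tested.

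With each library left out in turn, ovary against testis ran from 58 to 62 higher and 0 to 1 lower in controls, and from 56 to 62 and 1 to 5 in the experimental pair. The hours gave 0 to 6 higher in ovaries at 24 h, 0 to 4 in testes at 12 h and 1 to 4 in testes at 24 h. The difference of the 24 h changes gave 0 to 2 higher and 0 to 4 lower, tra2ts 0 to 1 lower and TraF 0 to 3 lower. The other counts stayed at 0.

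Members near 0 turned sign. mRpL28 (0.03) was at -0.060 at 12 h and -0.156 at 24 h alone, -0.290 with RLE scaling, -0.288 with DESeq2 and -0.024 to 0.140 without 1 library. mRpS18C (0.03) was at -0.098 at 12 h alone, -0.286 with RLE scaling, -0.284 with DESeq2, -0.015 without the libraries set apart and -0.028 to 0.152 without 1 library. mRpL51 (-0.07) was at 0.301 at 0 h alone, 0.131 with total counts and -0.138 to 0.051 without 1 library. For the switch in ovaries at 24 h, mRpL2 turned to -0.189 and mRpL21 to -0.245 without the libraries set apart, and mRpL21 ran from -0.232 without tra2ts 24 h replicate 2 to 1.021 without replicate 1.

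Replicate numbers were not treated as pairs. Deviations from group means correlated at -0.568 to 0.584 between same-numbered ovary libraries and -0.0753 to 0.436 between testis libraries, above 0.1 for 12 and 11 of 15 pairs of groups. 2 libraries a group limit small changes, and a p that misses the threshold does not show equal levels.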
